A study of Mus musculus with 8 samples.

Results

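The 8 genes described here, which mark the formative and primed states of pluripotency, were followed across 8 libraries of mouse embryonic stem cells, out of 55421 genes in the count table. They were taken from a named list: the transcription factor genes Otx2, Pou3f1, Foxd3, Sox4, Zic2 and Sox3, the growth factor gene Fgf5 and the carbonic anhydrase gene Car4. This list and those set beside it were chosen with earlier results of these data known. All 8 were in the table, and 7 passed the filter on low counts and were tested. The eighth, Fgf5, held 0 to 4 counts in every library.

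The cells are of the E14 line (129/Ola strain, blastocyst origin), grown on gelatin in medium with serum and LIF. The 4 groups hold 2 libraries each, which the submitters call biological duplicates. One set, handled together in library preparation and sequencing according to the submitters, compares untreated wild-type cells (WT) with untreated cells in which the microRNA genes between Mir290a and Mir295 are knocked out (KO). The other set consists of KO cells that received a pool of small interfering RNAs (siPOOL) at 5 nM, either a negative control (siNeg) or one against Tfap4 (siTfap4), and were harvested after 36 hours. Both siPOOL groups therefore lack the cluster, no group restores it, and no WT cells received a siPOOL. Whether the duplicates of a group are separate clones is not stated in the sources used here, so p-values measure only the spread between these libraries, pooled over the 4 groups. WT replicate 1 and KO replicate 2 share the tag CC in their titles, while KO replicate 1 carries HWP8 and WT replicate 2 a tag written like a date. What these tags mean is not given.

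Embryonic stem cells in serum and LIF are held near a naive state. On leaving it, cells pass through a formative state, in which OTX2 and the POU factor encoded by Pou3f1 (OCT6) help to redirect OCT4 to new enhancers, and reach a primed state like that of the epiblast after implantation, of which Fgf5 is a classic marker. The microRNAs of the Mir290a to Mir295 cluster are the most abundant of these cells and act on messenger RNAs that carry a match to their seed, bases 2 to 8 of the microRNA. TFAP4 is a basic helix-loop-helix factor that binds E-boxes, of the form CANNTG.

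The mature 3p microRNAs of the cluster are shown because loss of the cluster is what sets KO cells apart by design. The sequences are from RefSeq (GRCm38.p6, chromosome 7, plus strand), the capitals mark bases 2 to 8, and 5 of the 6 found there share AAGUGC. No 3p sequence was found there for Mir292.
mmu-miR-290a-3p: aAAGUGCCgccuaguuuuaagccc
mmu-miR-291a-3p: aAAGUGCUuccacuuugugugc
mmu-miR-291b-3p: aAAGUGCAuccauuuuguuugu
mmu-miR-294-3p: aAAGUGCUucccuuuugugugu
mmu-miR-295-3p: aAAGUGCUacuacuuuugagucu
mmu-miR-293-3p: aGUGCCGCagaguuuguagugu

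The longest annotated 3′ UTR of each of the 8 genes (GENCODE M21, 239 bases in Car4 to 2780 bases in Sox4) was searched for GCACTT, the DNA word that pairs with AAGUGC, on the transcript strand. One match was found, in Sox4, while 33.2% of the 12780 tested genes with a 3′ UTR hold at least 1. It lies at chr13:28949536-28949561 (minus strand, GRCm38), and its capitals mark a match to the seed of miR-291b-3p. By this word the genes described here are mostly without a seed match, which says nothing of other kinds of site.
Sox4: catctttttTGCACTTttttttataa

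RefSeq promoter windows (250 bases before to 50 after a start, GRCm38.p6) were available for 5 of the 8 genes, Otx2 with 4 starts. Pou3f1, Zic2 and Sox3 were not matched. E-boxes (CANNTG, which reads the same on both strands) were found in the windows of Foxd3, Sox4 and Otx2 and not in those of Car4 and Fgf5, while 72.3% of all 32851 windows hold one. The Foxd3 window (chr4:99656049-99656348, plus strand) is shown because Foxd3 is the gene that fell after the Tfap4 knockdown. It holds 1 E-box, CACGTG, 217 bases before the start, a word found in 7.15% of all windows, and its capitals mark that match.
Foxd3: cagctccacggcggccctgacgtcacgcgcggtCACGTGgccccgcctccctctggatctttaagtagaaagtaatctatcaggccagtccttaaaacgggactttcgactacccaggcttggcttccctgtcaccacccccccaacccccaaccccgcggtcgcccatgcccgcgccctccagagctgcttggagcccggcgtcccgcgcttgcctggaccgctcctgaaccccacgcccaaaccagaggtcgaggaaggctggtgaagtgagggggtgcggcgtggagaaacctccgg
The Sox4 window holds CAGCTG, a core word often given for TFAP4, 211 bases before the start, as do 16.3% of all windows. A match is a description of the letters and not a bound site.

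Levels are given as CPM, counts relative to library totals scaled with TMM factors. The libraries read the 3′ ends of polyadenylated RNA, so a level does not grow with the length of the transcript. Library totals ran from 8326675 to 12726123 counts. As checks of the labels, the plus-strand entries of the cluster held 88 and 39 counts in WT and 0 in each of the 6 libraries of KO cells, and Tfap4 stood at 34.4 and 37.4 CPM in siNeg against 12.4 and 15.8 CPM in siTfap4. The stem cell gene Sox2 stood at 641 to 1031 CPM in all 8 libraries, and the primitive streak gene T at 0 to 4 counts.

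**Figure D1:**
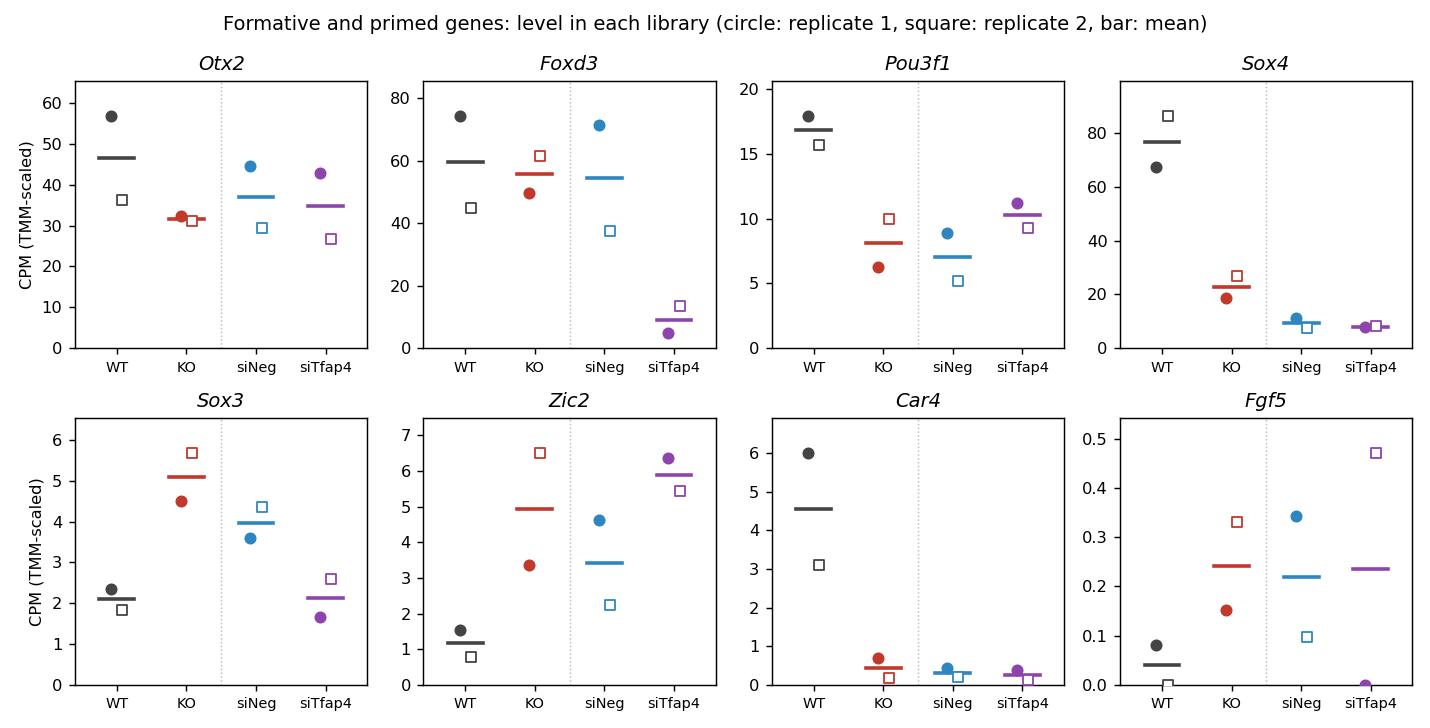
Level of each of the 8 genes in every library (y axis, CPM scaled with TMM factors, each panel from 0) in the 4 groups (x axis), with circles for replicate 1, squares for replicate 2, bars for the mean of 2 and a dotted line between the preparation sets. Sox4 and Car4 are highest in WT, Foxd3 is lowest in siTfap4, and Fgf5 stays under 0.5 CPM.

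KO and WT cells were compared to see which of these genes differ when the cluster is missing. They did not move as one. Sox4 and Car4 fell and Zic2 rose, while Otx2, Pou3f1, Foxd3 and Sox3 did not pass the test. By edgeR's quasi-likelihood test at an adjusted p of 0.05, 3 of the 7 tested genes were called, 1 higher and 2 lower, and the background in this comparison was 9.95% of 15137 genes called in either direction (5.99% higher and 3.96% lower). The median log2 fold change of the 7 was -0.56, against -0.01 over all tested genes.

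Sox4 encodes a SOXC transcription factor with roles in progenitor cells of many tissues. Its level was 67.3 and 86.5 CPM in the WT libraries and 18.6 and 26.9 CPM in the KO libraries. Both WT libraries lay far above both KO libraries. The log2 fold change was -1.76 (SE 0.28, 3.38-fold lower in KO, adjusted p = 0.000854), and the call held without any 1 of the 4 libraries, from -2.04 to -1.51. The gene (ENSMUSG00000076431, a single-exon gene at chr13:28948919-28953713, minus strand, in GRCm38) overlaps Gm26735, a long noncoding RNA on the other strand that is not analysed here. The strand setting of the counting is not given in the sources used here, so reads of the 2 cannot be told apart, and 16% of the last 200 bases of Sox4 also occur in other genes.

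Car4 encodes a membrane-anchored carbonic anhydrase, an enzyme that interconverts carbon dioxide and bicarbonate. It held 74 and 32 counts in WT and 9 and 2 counts in KO cells, that is 6.01 and 3.10 CPM against 0.688 and 0.165 CPM. The WT libraries were both higher, but they also differed from each other, and the KO values rest on a handful of counts. The log2 fold change was -3.37 (SE 0.61, 10.4-fold lower in KO, adjusted p = 0.0017). Leaving out 1 library kept the call and moved the value from -4.71 (without KO replicate 1) to -2.72 (without KO replicate 2), with -2.79 without WT replicate 1. The gene (ENSMUSG00000000805) lies on the plus strand of chromosome 11 at 84957786 to 84966044.

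Zic2 encodes a zinc finger factor that is known to act at enhancers in early pluripotency. It held 19 and 8 counts in WT and 44 and 79 counts in KO cells, or 1.54 and 0.775 CPM against 3.36 and 6.52 CPM. Both KO libraries were higher than both WT libraries, by a margin that depends on replicate 2 of each group. The log2 fold change was 2.04 (SE 0.54, 4.11-fold higher in KO, adjusted p = 0.0242). The call was lost without WT replicate 2 (log2 fold change 1.67, adjusted p = 0.150) and without KO replicate 2 (1.50, adjusted p = 0.230), while without WT replicate 1 the value was 2.65. The gene (ENSMUSG00000061524) lies on the plus strand of chromosome 14 at 122475435 to 122479852.

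Pou3f1 and Sox3 lay close to the threshold on opposite sides of 0. Pou3f1 stood at 18.0 and 15.7 CPM in WT and 6.27 and 9.98 CPM in KO cells. The groups did not overlap, as was so for 57.5% of all tested genes in this comparison. Its log2 fold change was -1.06 (SE 0.34, 95% interval -1.77 to -0.34) with an adjusted p of 0.0583 in edgeR. The adjusted p was 0.0488 with limma-voom, 0.0432 in a fit of the WT and KO libraries alone, 0.0396 after correcting for the GC content of 3′ ends and 0.0316 with that correction and a replicate block, and between 0.0845 and 0.445 when 1 library was left out. Sox3, a SOXB1 factor gene related to Sox2, stood at 2.36 and 1.84 CPM in WT and 4.51 and 5.69 CPM in KO cells. Its log2 fold change was 1.26 (SE 0.42, 95% interval 0.38 to 2.15, adjusted p = 0.0678), and none of the 13 alternatives called it at 0.05.

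Otx2 and Foxd3, the most abundant of the 8 genes besides Sox4, were not called. Otx2, a homeobox gene needed for the step into the formative state, stood at 56.9 and 36.2 CPM in WT and 32.3 and 31.2 CPM in KO cells. WT replicate 1 was apart from the other 3 libraries, and the log2 fold change of -0.56 (95% interval -1.19 to 0.08, adjusted p = 0.289) was -0.18 without it. Foxd3, a forkhead repressor gene that is expressed in pluripotent cells and in the neural crest, stood at 74.3 and 44.9 CPM in WT and 49.7 and 61.5 CPM in KO cells. The KO values fell between the WT values, and the log2 fold change was -0.10 (95% interval -0.91 to 0.71, adjusted p = 0.913). These intervals do not show that either gene is the same in both groups.

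Fgf5, which encodes a secreted ligand, was seen with 1 and 0 counts in WT cells, 2 and 4 in KO cells, 4 and 1 after siNeg and 0 and 4 after siTfap4. It was too low for a test in any comparison. A count of 0 allows up to 0.291 CPM in WT replicate 2 and 0.382 CPM in siTfap4 replicate 1 (3 counts, counting error only), and the highest level in any library was 0.472 CPM.

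**Figure D2:**
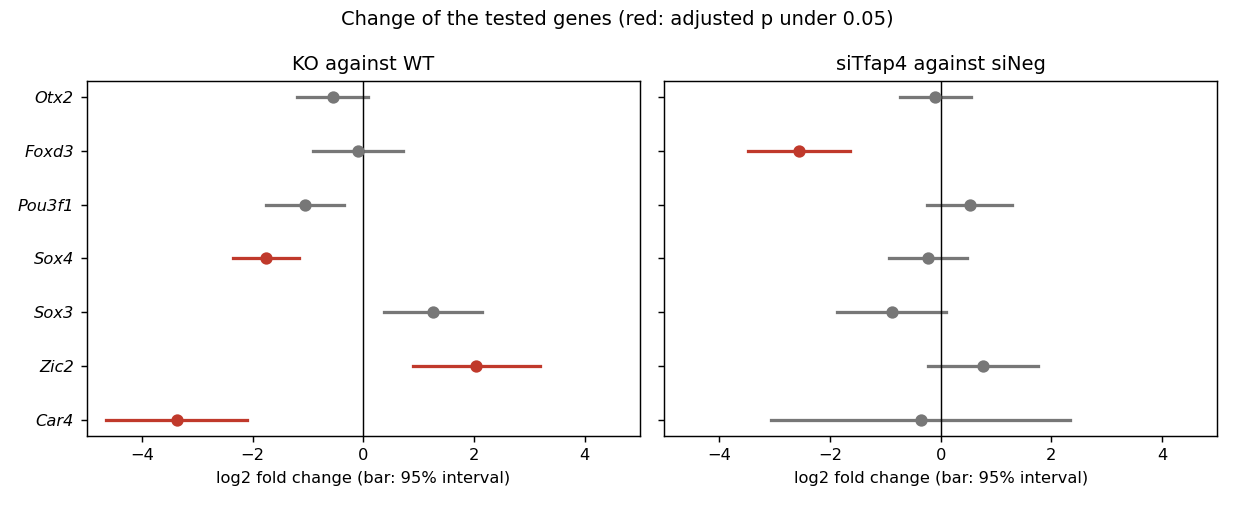
Log2 fold change (x axis) of the 7 tested genes with its 95% interval, for KO against WT (left) and siTfap4 against siNeg (right), in red where the adjusted p is under 0.05. Sox4, Car4 and Zic2 are called on the left, and Foxd3, at -2.56, on the right.

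The comparison of siTfap4 with siNeg, both in KO cells, asks which of these genes differ after the Tfap4 knockdown. Foxd3 fell, and the other 6 tested genes did not pass the test. So 1 of 7 was called, where 15.4% of all 15137 tested genes were called in this comparison (11.1% lower and 4.36% higher). The share of called genes among the 7 is near the background. The median log2 fold change of the 7 was -0.23, against 0.01 over all tested genes.

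Foxd3 held 831 and 387 counts in siNeg and 38 and 114 counts in siTfap4, or 71.2 and 37.5 CPM against 4.84 and 13.4 CPM. Both siTfap4 libraries were the lowest of all 8, although the duplicates of each siPOOL group differed widely. The log2 fold change was -2.56 (SE 0.43, 5.90-fold lower in siTfap4, adjusted p = 0.00153). All 13 alternatives called it, from -3.50 without siTfap4 replicate 2 to -1.98 with the GC correction. The value was -2.04 without siNeg replicate 1 and -2.03 without siTfap4 replicate 1. The gene (ENSMUSG00000067261, a single exon on the plus strand of chromosome 4 at 99656299 to 99658622) has 23% GC in its last 100 bases. Over 15126 genes, the log2 difference between siTfap4 and siNeg ran with this GC percent at a Pearson r of 0.37, against -0.03 for KO and WT. Within groups, for replicate 1 minus replicate 2, r was -0.29 in siNeg, 0.15 in siTfap4, -0.08 in WT and -0.04 in KO. These are descriptions across genes of the same libraries. Beyond the correction, the part of GC content in the fall of Foxd3 was not tested.

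Zic2 and Pou3f1 have nearly as low a GC percent (24% and 26%) and had positive values that did not pass the test. Zic2 stood at 4.63 and 2.23 CPM in siNeg and 6.37 and 5.43 CPM in siTfap4 (log2 fold change 0.76, 95% interval -0.23 to 1.75, adjusted p = 0.286). The groups of both genes did not overlap, as was so for 58.3% of all tested genes in this comparison. With the GC correction the value of Zic2 was 1.33 (adjusted p = 0.0646). Pou3f1 stood at 8.91 and 5.23 CPM in siNeg and 11.2 and 9.32 CPM in siTfap4 (0.53, 95% interval -0.24 to 1.29, adjusted p = 0.342). With the GC correction it was 1.05 (adjusted p = 0.0577), and with the correction and a replicate block it was called (1.07, adjusted p = 0.0454).

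The remaining 4 tested genes did not pass the test either. Sox3 stood at 3.60 and 4.36 CPM in siNeg and 1.66 and 2.59 CPM in siTfap4 (log2 fold change -0.89, 95% interval -1.87 to 0.09, adjusted p = 0.206). Otx2 stood at 44.6 and 29.5 CPM in siNeg and 42.8 and 26.8 CPM in siTfap4, where the duplicates of each group lay farther apart than the group means (-0.09, adjusted p = 0.867). Sox4 was low in both groups, at 11.3 and 7.45 CPM in siNeg and 7.77 and 8.26 CPM in siTfap4 (-0.23, adjusted p = 0.673). Car4 held 5 and 2 counts in siNeg and 3 and 1 in siTfap4, too few to give a narrow interval (-0.36, 95% interval -3.06 to 2.34, adjusted p = 0.879).

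Both comparisons can be read side by side for the same gene, since they share no library. Sox4, Car4 and Zic2, called in KO against WT, had adjusted p-values of 0.673, 0.879 and 0.286 after the Tfap4 knockdown, and Foxd3, called after the knockdown, had 0.913 in KO against WT. Whether the 2 effects on a gene differ was not tested.

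Untreated KO cells and siNeg cells share their genotype but differ in transfection and in preparation set, which cannot be told apart. Their levels are therefore set side by side with no test. Sox4 was at 22.7 ± 5.87 CPM (mean ± SD, n = 2) in KO and 9.38 ± 2.73 CPM in siNeg, Foxd3 at 55.6 ± 8.37 and 54.3 ± 23.9 CPM, and Otx2 at 31.7 ± 0.770 and 37.0 ± 10.6 CPM. Pou3f1 was at 8.12 ± 2.62 and 7.07 ± 2.61 CPM, Zic2 at 4.94 ± 2.23 and 3.43 ± 1.70 CPM, Sox3 at 5.10 ± 0.834 and 3.98 ± 0.535 CPM, and Car4 at 0.427 ± 0.370 and 0.311 ± 0.166 CPM.

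By their mean levels in WT cells the order was Sox4 (76.9 ± 13.6 CPM), Foxd3 (59.6 ± 20.8), Otx2 (46.6 ± 14.6), Pou3f1 (16.8 ± 1.60), Car4 (4.56 ± 2.06), Sox3 (2.10 ± 0.364), Zic2 (1.16 ± 0.544) and Fgf5 (0.041 ± 0.057). The neighbours Sox4 and Foxd3, Foxd3 and Otx2, and no others in this order, had libraries that overlapped. In siTfap4 cells Otx2 led with 34.8 ± 11.3 CPM, followed by Pou3f1 (10.3 ± 1.34), Foxd3 (9.14 ± 6.08) and Sox4 (8.01 ± 0.343), and the libraries of Foxd3 overlapped with those of Pou3f1 and of Sox4, while those of Pou3f1 and Sox4 did not overlap.

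A wider list of 17 other formative or primed genes was examined, also chosen with earlier results of these data known. In KO against WT, 3 of its 15 tested members rose and 3 fell. That is 40%, where 9.95% of all tested genes were called. The median log2 fold change was -0.12, against -0.01 over all tested genes. The risers were Lef1, a WNT effector gene (0.813 and 0.582 CPM in WT, 9.25 and 7.67 CPM in KO), Sall2, a zinc finger gene (log2 fold change 1.76, SE 0.42), and Zic5, the neighbour and relative of Zic2 (1.17, SE 0.36). The fallers were Tcf15, a basic helix-loop-helix gene linked to the exit from the naive state (187 and 187 CPM in WT, 53.8 and 75.5 CPM in KO), Etv4, an ETS factor gene (-1.22, SE 0.28), and Utf1, a chromatin factor gene (-0.92, SE 0.22). The rule for naming stops at 4 called genes a list, so Utf1 was named after its value was seen. Lef1 and Tcf15 kept their calls without any 1 library. For Etv4 the adjusted p was 0.106 without WT replicate 2 and 0.169 without KO replicate 1, and for Utf1 it was 0.0648 to 0.227 when any single library was dropped. For Sall2 it was 0.0588 without WT replicate 1, 0.0758 without WT replicate 2 and 0.108 without KO replicate 2. For Zic5 it was 0.0748 without KO replicate 1, 0.286 without KO replicate 2 and 0.329 without WT replicate 2, and the call was also lost with the legacy fit (0.0629), in the fit of 4 libraries (0.0689), with a replicate block (0.0798) and with that block and the GC correction (0.0525). The log2 fold change of Zic5 ran from 0.69 without WT replicate 2 to 1.93 without WT replicate 1.

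In siTfap4 against siNeg, 1 of these 15 rose and 0 fell, with a median of 0.18. The share called was 6.67%, below the 15.4% of all tested genes. Etv4 rose (log2 fold change 0.93, SE 0.29). Its call was lost with the GC correction (adjusted p = 0.204; 0.147 with a replicate block added), in a fit of the siPOOL libraries alone (0.0615) and with limma-voom (0.0510). With the GC correction the list's called gene was instead Lef1, which was higher (1.09, adjusted p = 0.0339; 1.10 and 0.0232 with a replicate block added). Etv4 also lost its call without siNeg replicate 1 (log2 fold change 0.87), siNeg replicate 2 (0.95) or siTfap4 replicate 1 (0.55). The formative DNA methyltransferase genes Dnmt3a and Dnmt3b were not called by edgeR in either comparison. For Dnmt3b in KO against WT the log2 fold change was -0.77 (adjusted p = 0.0903), and it was called lower in the fit of WT and KO alone (0.0304) and with a replicate block and the GC correction (0.0400). Wnt8a and Fgf8, markers of later epiblast stages, held 0 to 10 counts in a library and were not tested.

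**Figure D3:**
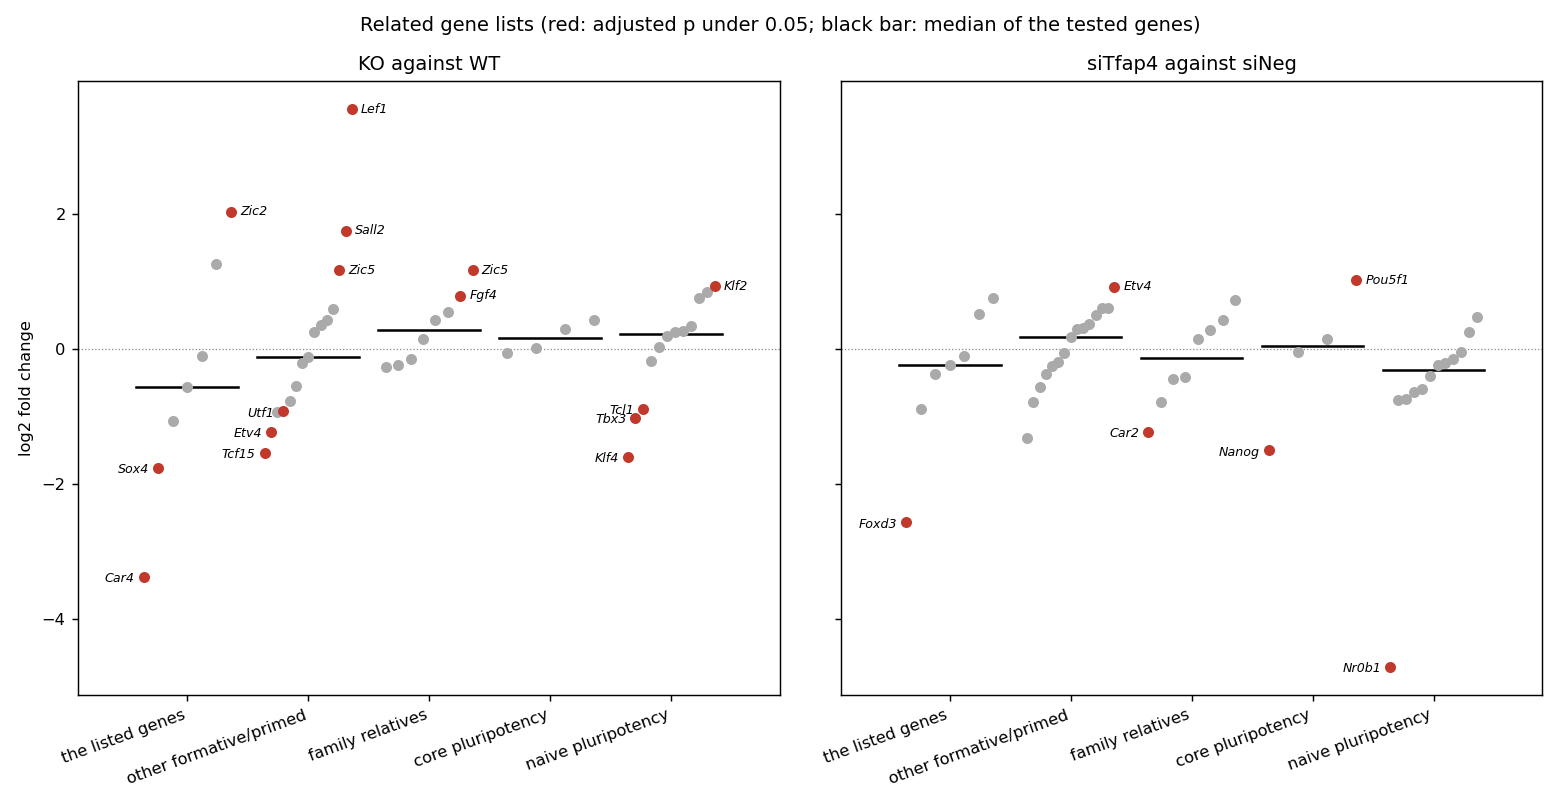
Log2 fold change (y axis) of each tested gene of 5 lists (x axis) for KO against WT (left) and siTfap4 against siNeg (right), in red and named where the adjusted p is under 0.05, with a bar at each list's median. The formative and primed genes lie on both sides of 0 on the left, and Foxd3, Nanog and Nr0b1 are the lowest called genes on the right.

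Among family relatives of the 8 genes, 8 of 15 were tested. Of the tested relatives, 25% were called in KO against WT, beside 9.95% of all tested genes. In siTfap4 against siNeg the shares were 12.5% and 15.4%. In KO against WT Fgf4, an FGF ligand gene of naive cells (log2 fold change 0.80, SE 0.24), and Zic5 rose and none fell. Fgf4 lost its call whichever library was dropped (adjusted p from 0.131 to 0.313), and with a replicate block both calls were lost (0.0640 for Fgf4 and 0.0798 for Zic5). In siTfap4 against siNeg Car2, another carbonic anhydrase gene (-1.22, SE 0.37), fell and none rose; the Car2 call was lost without siNeg replicate 1 (0.163), siNeg replicate 2 (0.133) or siTfap4 replicate 1 (0.327), with the GC correction (0.166; 0.115 with a replicate block added) and with no filter on low counts (0.0914), and its value was -1.82 without siTfap4 replicate 2. The SOXC relatives of Sox4, Sox11 and Sox12, were at -0.23 and 0.55 in KO against WT, neither called. The SOXB1 relatives of Sox3, Sox1 and Sox2, were at 0.15 and 0.43 there, neither called. After the Tfap4 knockdown Sox11 was not called by edgeR (0.73, adjusted p = 0.221). With a replicate block and the GC correction it was called higher (1.17, adjusted p = 0.00865). Leaving out 1 library moved the value of Sox11 from 0.04 to 1.20.

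Pluripotency genes that define the state these 8 genes follow were set beside them. Of 12 tested naive genes, 1 rose and 3 fell in KO against WT, and 0 rose and 1 fell in siTfap4 against siNeg. The shares called were 33.3% and 8.33%, beside 9.95% and 15.4% of all tested genes. In KO cells Klf2 rose (log2 fold change 0.94, SE 0.25), and Klf4 (-1.59, SE 0.26), Tbx3 (-1.01, SE 0.23) and Tcl1 (-0.88, SE 0.22) fell. Klf4, a Krüppel-like factor gene, kept its call whichever library was dropped. Klf2 had adjusted p-values of 0.129, 0.143 and 0.257 without KO replicate 1, KO replicate 2 and WT replicate 2, Tbx3 of 0.0791, 0.0991 and 0.154 without KO replicate 2, WT replicate 1 and KO replicate 1, and Tcl1 of 0.0576 to 0.215 when any single library was dropped. The gene that fell after the knockdown was Nr0b1, an orphan nuclear receptor gene, with 1817 and 429 counts in siNeg and 12 and 50 in siTfap4 (log2 fold change -4.71, SE 0.73, adjusted p = 0.00225). Its call was lost without siTfap4 replicate 1 (0.0871, at a value of -4.07) and with no filter on low counts (0.0843). The value was -3.47 without siNeg replicate 1, -5.38 without siNeg replicate 2 and -6.02 without siTfap4 replicate 2. With the GC correction Klf4 was called higher (1.05, adjusted p = 0.0144) and Esrrb lower (-0.85, adjusted p = 0.0213) in this comparison. Klf2 was called lower with DESeq2 (0.0436), limma-voom (0.0465), no filter on low counts (0.0340), a replicate block (0.0499), that block with the GC correction (0.0453) and without siTfap4 replicate 2 (0.0284). Of 4 core genes, none was called in KO against WT by edgeR (0 at an unadjusted p under 0.05, 0 with DESeq2 and 0 with limma-voom). After the Tfap4 knockdown Nanog fell from 412 and 316 CPM to 79.8 and 179 CPM (-1.49, SE 0.30, adjusted p = 0.00403; 0.0577 without siNeg replicate 1). The value of Nanog ran from -1.04 without siTfap4 replicate 1 to -2.20 without siTfap4 replicate 2. Pou5f1 rose from 25.2 and 27.7 CPM to 59.0 and 48.4 CPM (1.02, SE 0.25, adjusted p = 0.0121; 0.0934 without siNeg replicate 1 and 0.114 without siTfap4 replicate 1).

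Markers of other cell types moved with the KO comparison. Over all tested genes, 5.99% were called higher and 3.96% lower there. In bulk libraries, fewer cells of a type and less RNA per cell cannot be told apart. Of 8 primitive endoderm markers, all tested, 5 fell (Dab2, Col4a1, Gata6, Sox17 and Pdgfra, the last named after its value was seen) and 0 rose in KO cells, beside the falls of Sox4 and Car4. These 5 calls held whichever library was dropped. Summed over all 8 primitive endoderm markers, the level was 126 and 115 CPM in WT and 14.0 and 14.2 CPM in KO. In the siPOOL libraries it was 9.08 to 16.2 CPM. The 2 tested fibroblast or feeder markers of 6, Thy1 and Col1a1, fell, while Col3a1 held 0 counts in every library. All 6 summed to 28.5 and 49.9 CPM in WT and 10.02 and 20.04 CPM in KO. Nearly all of that was Thy1, at 26.5 and 48.3 CPM in WT and 9.56 and 19.7 CPM in KO. Of 5 tested trophectoderm markers of 7, Tfap2c and Krt7 rose and 0 fell, with Cdx2 and Elf5 at 0 to 12 counts. The other 3 had negative log2 fold changes and were not called (Krt8 -0.02, Krt18 -0.53 and Hand1 -0.24). This list summed to 99.7 and 101 CPM in WT and 384 and 239 CPM in KO. Most of that was Tfap2c, at 88.7 and 84.7 CPM in WT and 369 and 223 CPM in KO. Krt7 itself stood at 2.28 and 2.13 CPM in WT and 6.04 and 5.11 CPM in KO. Of 4 tested neural markers of 6, Pax6 rose and 0 fell, with Neurog2 at 0 to 1 counts. Pax6 stood at 0.406 and 0.485 CPM in WT and 15.5 and 15.9 CPM in KO. The whole neural list summed to 33.2 and 52.1 CPM in WT and 87.9 and 63.5 CPM in KO. Of 3 tested mesoderm markers of 7, 0 rose and Cdx1 fell. Cdx1 stood at 8.45 and 15.0 CPM in WT and 4.66 and 4.04 CPM in KO. Summed over the mesoderm list, the level was 12.4 and 27.1 CPM in WT and 13.9 and 11.5 CPM in KO. Of 3 tested markers of the 2-cell-like state of 6, Zscan4d rose and 0 fell. Zscan4d stood at 0.325 and 0.388 CPM in WT and 1.68 and 4.45 CPM in KO. Over the list of this state, the summed level was 2.28 and 1.74 CPM in WT and 5.81 and 11.5 CPM in KO. Of the last 200 bases, 51% in Krt7 and 77% in Zscan4d also occur in other genes, so these 2 are uncertain. With single libraries left out, the adjusted p rose to at most 0.244 for Krt7, 0.241 for Col1a1, 0.285 for Thy1 (without KO replicate 1), 0.238 for Cdx1 (without WT replicate 2) and 0.187 for Zscan4d (without KO replicate 2), and Krt7 and Col1a1 lost their calls whichever library was dropped. These 2 were not called with DESeq2 (0.0552 and 0.223) or limma-voom (0.0600 and 0.0850) either, nor with a replicate block (0.0567 and 0.0758), and Thy1 was not in the fit of WT and KO alone (0.0561). The part of these cell types in the changes of Sox4, Car4 and Zic2 was not tested. In siTfap4 against siNeg, 15.4% of all tested genes were called, 11.1% lower and 4.36% higher. Beside the fall of Foxd3, none of the 22 tested primitive endoderm, trophectoderm, neural, feeder or 2-cell-like markers was called there by edgeR. At an unadjusted p under 0.05 there were 4. Pax6 (log2 fold change -1.08), Sox7 (-2.22) and Krt8 (-0.83) were lower, and the neural marker Nes was higher (1.04). DESeq2 called 2, which were Pax6 and Sox7, and limma-voom called 0. With a replicate block Pax6 was called lower (adjusted p = 0.0420). Of the mesoderm markers, 1 of 3 tested, Cdx1, fell (log2 fold change -2.20, SE 0.62), a call lost whichever library was dropped (adjusted p from 0.0559 to 0.261) and with the GC correction (0.0728).

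For each tested gene, the 2 genes with the most similar pattern over the 8 libraries were sought among 8635 genes with a mean of at least 10 CPM, by Pearson's r of log2 CPM. The points share their preparation sets and depth, so r is a description. Sox4 ran most closely with B2m (r = 0.99) and with Tcf15 (0.98), which is itself on the wider formative list. Foxd3 ran with Ptk2 and Ddx20 (both 0.99), Car4 with Yme1l1 and Lamb1 (both 0.98), and Sox3 with Trim35 (0.98) and Platr3 (0.97). Pou3f1 ran with Abcb1b and Zfp472 (both 0.97), Zic2 with Bnc2 (0.96) and Fam120b (0.95), and Otx2 with Brd8 (0.96) and Slx4 (0.95).

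The calls of the 8 genes varied in how far they hold over 13 alternatives each. Sox4, Car4 and Foxd3 were called under all 13, with adjusted p-values up to 0.0272, 0.0328 and 0.0273. Zic2 was called under 11, with adjusted p-values from 0.00608 to 0.230.

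**Figure D4:**
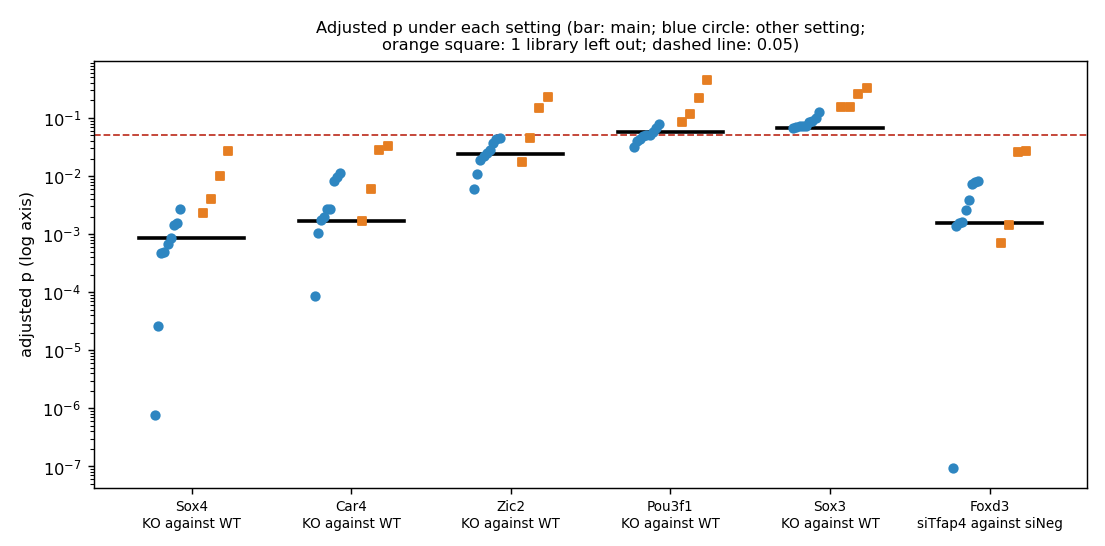
Adjusted p (y axis, log scale) of 5 genes in KO against WT and of Foxd3 in siTfap4 against siNeg, for the reported fit (bar), each other setting (blue circles) and each library left out (orange squares), with a dashed line at 0.05. Sox4, Car4 and Foxd3 stay under the line in all settings, Zic2 crosses it in 2 of 13, and Sox3 stays above it in all.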

How the data were processed

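Expression was measured with QuantSeq 3′ mRNA libraries. The deposited values are integer counts per gene; per the submitters' processing notes, reads were trimmed with Trim Galore and the build was GRCm38. The sources used here name no aligner, counting tool or strand setting. Of 55421 identifiers, 99.5% had a symbol in GENCODE M21. The duplicates of each group differed by more than counting error (chi-square per degree of freedom 11.3 to 37.7). The 8 genes and all lists were chosen with earlier results of these data known. Some list members are not reported here, and list counts and medians leave them out.

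Genes were filtered with filterByExpr (15137 tested), scaled with TMM factors and fitted with edgeR 4.0.16 in R 4.3.3: a robust quasi-likelihood model with 4 group means on 8 libraries and 4 residual degrees of freedom. P-values were adjusted by Benjamini-Hochberg over all tested genes (threshold 0.05). CPM were computed here from the counts. The SE is the log2 fold change divided by the square root of F, and intervals use the t distribution. The fit was tested on simulated data.

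Genes named by rule were the 8, Tfap4, up to 4 called members of each list by smallest p, and the 2 genes most like each tested one (log2 CPM, prior count 2). Other list members were named outside this rule, among them Dnmt3a, Dnmt3b, Wnt8a, Fgf8, Sox1, Sox11, Sox12, Esrrb, Nes, Sox7, Krt8, Krt18 and Hand1. Alternatives were DESeq2 1.42.0, limma-voom (limma 3.58.1), the legacy quasi-likelihood fit, no filter or 1 CPM in 2 libraries, 4 libraries alone, a replicate block, a correction for GC of the last 100 bases (lowess, span 0.3), both together, a threshold of 0.1, and each library left out.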

Additional observations from a re-analysis of the deposited data

How the results depend on the processing

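At a threshold of 0.1 the number of formative and primed genes called was 5 for KO against WT (Pou3f1 and Sox3 added) and 1 for siTfap4 against siNeg. Of all 15137 tested genes, 2207 and 3528 were called at that threshold. With the replicate block and the GC correction together, 2 formative and primed genes were called for siTfap4 against siNeg (Pou3f1 added), beside 2203 of all genes. Leaving out 1 library gave 2 to 3 genes in the first comparison and 1 in the other. Over all genes, the count of 1506 for KO against WT became 629 to 880 when 1 library was left out, and the count of 2334 for siTfap4 against siNeg became 522 to 2961, and 3528 at a threshold of 0.1. A group left with a single library takes its spread from the other groups. The replicate numbers are not stated to pair libraries: same-numbered libraries deviated together at r = -0.06 in WT and KO and 0.13 in siNeg and siTfap4. The replicate block gave 3 and 1 of the 8 genes called (1337 and 2064 of all genes), and changed no call of the 8 genes on its own. No value of a single gene that was called reversed its direction under any alternative run. The causes of these differences were not tested, beyond fewer libraries in the fits that leave one out. Genes at a few counts, such as Car4 in KO cells and Fgf5 in all libraries, are limited by depth.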
